A study of Rattus norvegicus with 6 samples.

Results

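The transcription factor Nrf2, its inhibitor Keap1 and 8 of the antioxidant genes most often used to read its activity were examined in NRK-52E cells exposed to streptozotocin (STZ). The 10 genes were taken from the deposited count table by their symbols, Nfe2l2, Keap1, Nqo1, Hmox1, Gclc, Gclm, Txnrd1, Srxn1, Slc7a11 and Osgin1. Of these, 9 matched a single entry among the 18930 genes listed, and Srxn1 did not match and was not analysed here. All 9 passed the filter on low counts. NRK-52E is an established epithelial line from rat kidney with a wild-type genotype. RNA was sequenced from 3 Control samples, which received vehicle, and from 3 STZ samples, which were kept in 10 mM of STZ for 24 h. STZ was dissolved in dimethyl sulfoxide and joins a glucosamine to an alkylating nitrosourea. All samples came from the same line, and only this dose and this time were sequenced.

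Nrf2, encoded by Nfe2l2, is held in the cytoplasm by Keap1, which brings it to a Cul3 ubiquitin ligase for degradation. When electrophiles or oxidants modify cysteines of Keap1, newly made Nrf2 escapes, enters the nucleus, pairs with small Maf proteins and binds antioxidant response elements. Its targets make glutathione, reduce thioredoxin, detoxify quinones and break down heme. The control of Nrf2 acts largely on the protein, so its own mRNA need not move with its activity. In the kidney the pathway is known for protection of tubules against ischemic and toxic injury.

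Total counts were between 10430924 and 15191349 per sample, and edgeR's scaling factors (TMM) were between 0.988 and 1.02. Levels are given below as TMM-scaled CPM (counts scaled by library size, so proportional to a gene's share of its library), and changes as log2 fold changes of STZ against Control. P-values came from the quasi-likelihood test of edgeR and were adjusted by the Benjamini-Hochberg method over the 11870 genes tested. Whether the samples were separate cultures is not stated, so the errors measure the spread between these samples. The epithelial markers Krt8 and Tjp1 were abundant, with mean levels of 1149 and 612 CPM in Control, whereas Krt18 had 1 read in Control replicate 1 and 3 in STZ replicate 1. Cdh1 had 2.58 CPM in Control and 1.64 CPM in STZ (log2 fold change -0.69, adjusted p = 0.030). Of 6 proximal tubule markers, Lrp2, Cubn, Slc34a1, Slc5a2 and Slc2a2 stayed at 10 reads or fewer in every sample. Only Aqp1 was tested, at 13.1 CPM in Control and 5.43 CPM in STZ (log2 fold change -1.25, adjusted p = 9.4e-09). The summed level of the 4 epithelial markers found was between 1735 and 1806 CPM in Control and between 2254 and 2261 CPM in STZ, carried by Krt8 and Tjp1, and its part in the results below was not tested. Markers of endothelium summed to at most 0.772 CPM, and those of leukocytes to at most 2.20 CPM, in any sample. The 4 fibroblast markers found summed to between 47.5 and 52.8 CPM in Control and between 36.3 and 43.2 CPM in STZ. In bulk RNA, fewer cells of a type and less RNA per cell cannot be told apart.

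The promoters of 4 genes are shown, because Nqo1 had the largest gain in reads, Gclm and Gclc encode the subunits of the same enzyme, and Txnrd1 rose by a smaller amount. Each is the 250 bases before an annotated transcription start, from RefSeq in the rat build GRCr8, written 5′ to 3′ on the strand of the gene. Capitals mark a match to the core of the antioxidant response element, TGACNNNGC. Txnrd1 has 2 annotated starts in the table, and the window with a match is shown. Nqo1 lies at chr19:52220268-52220517 (minus strand), Gclc at chr8:87510226-87510475 (plus strand), Gclm at chr2:213031885-213032134 (plus strand) and Txnrd1 at chr7:22755905-22756154 (minus strand).
Nqo1: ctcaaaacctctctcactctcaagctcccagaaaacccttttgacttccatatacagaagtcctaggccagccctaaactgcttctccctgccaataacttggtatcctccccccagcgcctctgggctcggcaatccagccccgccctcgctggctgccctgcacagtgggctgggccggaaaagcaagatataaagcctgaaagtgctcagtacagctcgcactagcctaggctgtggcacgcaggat
Gclc: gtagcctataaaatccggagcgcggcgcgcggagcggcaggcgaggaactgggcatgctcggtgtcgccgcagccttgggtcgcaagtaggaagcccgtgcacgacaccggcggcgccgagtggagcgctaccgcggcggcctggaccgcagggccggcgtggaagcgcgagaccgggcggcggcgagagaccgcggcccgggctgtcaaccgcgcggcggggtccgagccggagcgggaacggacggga
Gclm: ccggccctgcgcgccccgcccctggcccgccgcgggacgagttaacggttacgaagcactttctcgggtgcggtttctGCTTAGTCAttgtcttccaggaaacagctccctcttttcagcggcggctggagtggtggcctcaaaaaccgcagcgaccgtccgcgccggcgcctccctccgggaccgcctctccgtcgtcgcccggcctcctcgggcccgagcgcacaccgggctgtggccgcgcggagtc
Txnrd1: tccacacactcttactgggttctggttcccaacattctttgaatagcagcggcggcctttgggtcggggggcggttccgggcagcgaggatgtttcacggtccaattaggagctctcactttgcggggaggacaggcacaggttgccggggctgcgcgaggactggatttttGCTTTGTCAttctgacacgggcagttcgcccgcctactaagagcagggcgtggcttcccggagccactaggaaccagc

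The letters TGACNNNGC were searched on both strands of windows from 250 bases before to 50 bases after the start. In Gclm they were found on the opposite strand as TGACTAAGC, at positions -172 to -164 from the start. In Txnrd1 they were found on the opposite strand as TGACAAAGC, at positions -78 to -70. Nfe2l2 itself held TGACGCCGC at positions 39 to 47 after its start. The AP-1 letters TGANTCA, whose binding sites can overlap antioxidant response elements, were found only in Srxn1, with 2 matches. RefSeq windows were found for 9 of the 10 genes, and Hmox1 had none. Of 10 windows, 3 held the antioxidant response element core and 1 the AP-1 letters, against 12.1% and 7.33% of all 33469 windows. These matches describe the reference sequence, and distal elements lie outside such short windows.

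STZ-treated cells differed from vehicle-treated cells in 5 target genes and not detectably in the regulators. Hmox1, Nqo1 and Osgin1 rose more than 2-fold, Txnrd1 and Gclm rose by 23.9% and 15.6%, and Nfe2l2, Keap1, Gclc and Slc7a11 did not pass the test. With an adjusted p-value under 0.05, 5 of the 9 genes were higher, against 25.9% of all genes tested. None was lower by this edgeR test, at an unadjusted p under 0.05, or by any other tool run, against 25.1% of all genes tested. Of the 9 genes, 3 also exceeded a log2 fold change of 1, against 2.26% of all genes tested. In the same 5 genes every STZ sample lay above every Control sample, which held for 28.6% of all genes tested. The opposite order, found in 27.7% of all genes tested, was seen in none of the 9. The median log2 fold change of the 9 genes was 0.21, against -0.01 over all genes tested.

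**Figure D1:**
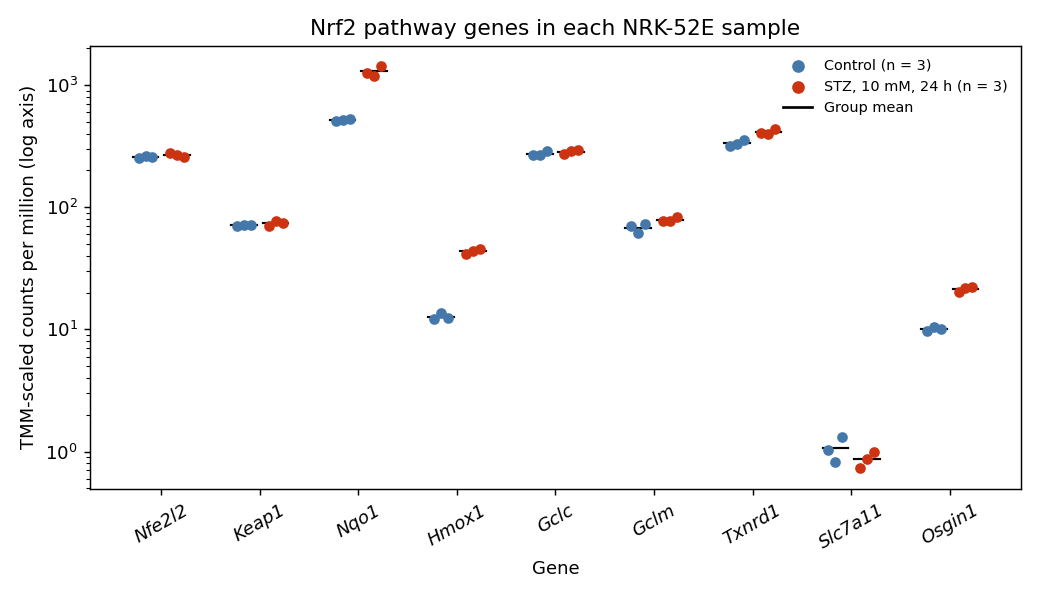
TMM-scaled CPM (log axis) of the 9 genes in each of the 3 Control and 3 STZ samples, with group means as bars. Hmox1, Nqo1 and Osgin1 show clearly separated groups, whereas the points of Nfe2l2, Keap1, Gclc and Slc7a11 overlap.

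The regulators were examined first. Nfe2l2 had 252, 261 and 257 CPM in Control replicates 1, 2 and 3, and 275, 269 and 259 CPM in STZ replicates 1, 2 and 3. The groups overlapped, since STZ replicate 3 lay below Control replicate 2. This gave a log2 fold change of 0.06 (adjusted p = 0.19, standard error 0.04), and the 95% interval of the change ran from -1.18% to 10.1%. Keap1, the adaptor that marks Nrf2 for degradation, had 70.5, 70.9 and 71.5 CPM in Control and 70.0, 76.9 and 74.2 CPM in STZ. STZ replicate 1 was the lowest of all 6 samples and the other two were the highest. The fit for Keap1 gave 0.05 on the log2 scale (adjusted p = 0.42, standard error 0.05), with an interval from -3.55% to 11.4%. The estimated rises of the 5 targets that passed were thus outside both intervals. The interval of the smallest of these, Gclm, ran from 6.92% to 25.0% and overlapped both. A rise of 10.1% in Nfe2l2 lay at the edge of its interval.

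The ratio of Keap1 to Nfe2l2 counts within a sample does not depend on how libraries are scaled. It was 0.280, 0.271 and 0.279 in Control and 0.254, 0.286 and 0.286 in STZ. On the log2 scale the mean was -1.85 ± 0.02 in Control and -1.86 ± 0.10 in STZ (SD, n = 3), and an exact two-sided permutation test gave p = 1. The mean log2 ratio of inhibitor to factor differed by -0.01 between the groups, within the spread between samples, and STZ replicate 1 stood lowest. With 3 against 3 samples the permutation test cannot give a p-value under 0.1, so it cannot show that the balance was unchanged.

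Nqo1 encodes NAD(P)H quinone dehydrogenase, which reduces quinones without forming semiquinone radicals. It had 505, 522 and 532 CPM in Control and 1267, 1191 and 1432 CPM in STZ. The lowest STZ sample exceeded the highest Control sample by far, and STZ replicate 3 stood above the other two. This gave a log2 fold change of 1.32 (adjusted p = 4.4e-27, standard error 0.04), a 2.50-fold rise with a 95% interval from 2.35 to 2.65. This placed Nqo1 at position 152 from the top of all genes tested. Summed over the 9 genes, levels were between 1507 and 1598 CPM in Control and between 2363 and 2653 CPM in STZ. Nqo1 accounted for 83.2% of the difference in this sum, in reads that also depend on transcript length.

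Hmox1 encodes the inducible heme oxygenase, which cleaves heme into biliverdin, carbon monoxide and iron. It had 128, 150 and 160 reads in Control and 566, 509 and 687 reads in STZ. These counts correspond to 12.1, 13.6 and 12.5 CPM in Control and to 41.1, 44.2 and 45.8 CPM in STZ. The groups were widely separated and each was tight. STZ raised it by a log2 fold change of 1.78 (adjusted p = 4.7e-22, standard error 0.08), a 3.44-fold rise with an interval from 3.07 to 3.85, and the highest of the 9. It stood at position 67 of all genes tested. A long non-coding RNA overlaps the span of Hmox1 in GRCr8, and no source used here says whether counting was strand-specific, so reads of the pair may be mixed. The ratio of Nqo1 to Hmox1 counts was 41.8, 38.3 and 42.7 in Control and 30.8, 26.9 and 31.2 in STZ. The log2 ratio was 0.47 lower in STZ (-0.47), without overlap between the groups, and the exact two-sided permutation test gave p = 0.1, the smallest value that 3 against 3 samples allow.

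Osgin1 encodes an oxidative stress-induced growth inhibitor. It had 103, 116 and 130 reads in Control and 280, 253 and 333 reads in STZ, or 9.71, 10.5 and 10.1 CPM against 20.4, 22.0 and 22.2 CPM. The groups did not overlap, although the gene was among the least abundant in reads. The fit gave 1.08 on the log2 scale (adjusted p = 2.0e-12, standard error 0.10), a 2.12-fold rise with an interval from 1.85 to 2.44. The interval reaches below a doubling on the log2 scale. The glmTreat test asks whether the change itself exceeds a log2 fold change of 1. For Osgin1 it gave an unadjusted p of 0.074 and an adjusted p of 1. By the same test the adjusted p was 2.5e-10 for Hmox1 and 7.6e-08 for Nqo1.

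Txnrd1 encodes cytosolic thioredoxin reductase, a selenoprotein that keeps thioredoxin reduced with NADPH. It had 319, 331 and 354 CPM in Control and 407, 395 and 441 CPM in STZ. Every STZ sample was higher than every Control sample, but the gap between the nearest samples was narrow. Txnrd1 rose by a log2 fold change of 0.31 (adjusted p = 2.8e-08, standard error 0.04), a rise of 23.9% with an interval from 17.0% to 31.2%. In GRCr8 its span overlaps 4 other genes, among them Eid3, so that some reads may not be fully assigned.

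Glutamate-cysteine ligase, the first and rate-limiting enzyme of glutathione synthesis, consists of a catalytic subunit (Gclc) and a modifier subunit (Gclm). Gclc had 268, 269 and 288 CPM in Control and 274, 287 and 295 CPM in STZ. STZ replicates 1 and 2 both lay below Control replicate 3, and the groups overlapped. A log2 fold change of 0.05 was fitted (adjusted p = 0.27, standard error 0.04), with an interval from -1.82% to 9.74%. Gclm had 70.3, 61.7 and 72.7 CPM in Control and 76.5, 76.8 and 83.3 CPM in STZ. The groups did not overlap, and Control replicate 2 stood below the others. Gclm rose by a log2 fold change of 0.21 (adjusted p = 0.0017, standard error 0.06), a rise of 15.6% with an interval from 6.92% to 25.0%. Without Control replicate 2 the log2 fold change was 0.14 and the adjusted p was 0.049.

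The ratio of Gclm to Gclc counts was 0.262, 0.229 and 0.253 in Control and 0.279, 0.268 and 0.282 in STZ. It was higher in every STZ sample than in every Control sample, by 0.16 on the log2 scale, with an exact two-sided permutation p of 0.1, again the smallest possible. Without Control replicate 2 this difference was 0.10. Thus Gclm passed the test and Gclc did not, while the exact permutation test of the difference between them cannot give a p-value under 0.1 with 3 against 3 samples.

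**Figure D2:**
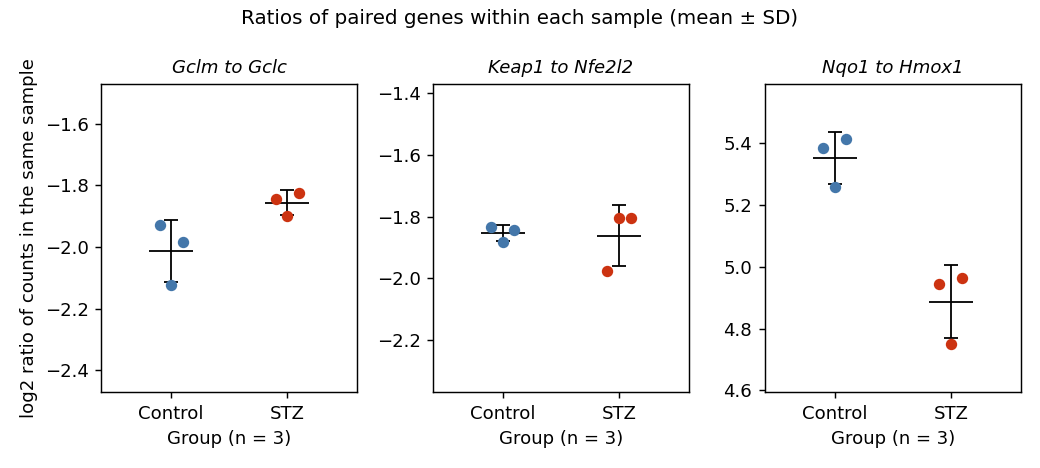
Log2 ratio of the counts of paired genes in the same sample, for 3 Control and 3 STZ samples, with mean ± SD in black and the same axis length in each panel. Gclm to Gclc is higher and Nqo1 to Hmox1 is lower in every STZ sample, and Keap1 to Nfe2l2 overlaps between the groups.

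Slc7a11 encodes the transport subunit of the cystine/glutamate antiporter xCT, which brings in cystine for glutathione synthesis. It was barely detected, with 11, 9 and 17 reads in Control and 10, 10 and 15 reads in STZ. The groups overlapped. The fit gave a log2 fold change of -0.30 (adjusted p = 0.51, standard error 0.36), and the interval of the fold ran from 0.491 to 1.34. Without Control replicate 3 the log2 fold change was -0.09, and over the samples left out one at a time it reached down to -0.45. At this depth a moderate change in either direction was not detectable, although a rise like that of Nqo1 lay outside the interval. Its partner in the antiporter, Slc3a2, had 86.2 CPM in Control and 101 CPM in STZ and rose with a log2 fold change of 0.22 (adjusted p = 1.4e-04).

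**Figure D3:**
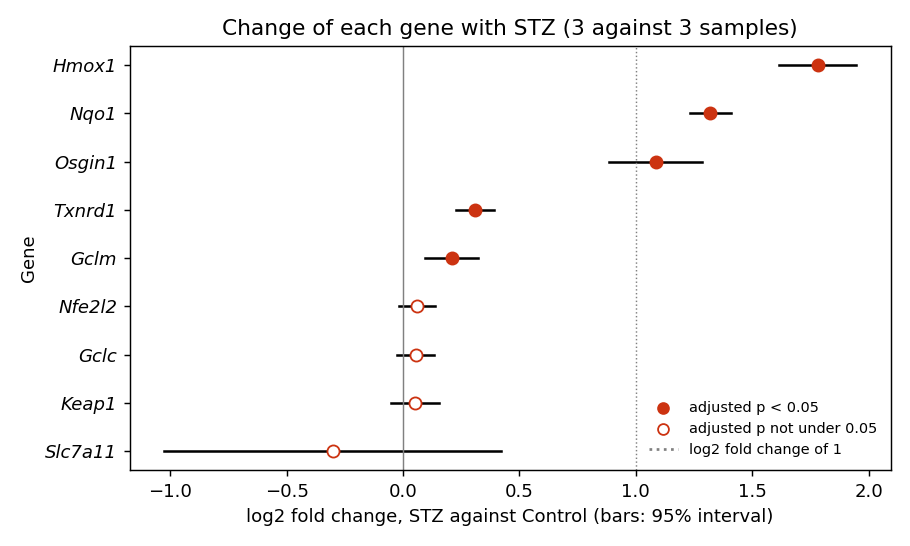
Log2 fold change of the 9 genes, STZ against Control, with 95% intervals from edgeR's fit, where filled points have an adjusted p under 0.05 and the dotted line is a log2 fold change of 1. Hmox1, Nqo1 and Osgin1 stand apart from Txnrd1 at 0.31 and Gclm at 0.21, and Slc7a11, with 9 to 17 reads per sample, has the widest interval.

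The spread between replicates was small beside the rises of Hmox1, Nqo1 and Osgin1, and less so beside that of Gclm. Coefficients of variation of the scaled levels in Control were between 0.702% for Keap1 and 8.51% for Gclm, apart from Slc7a11 at 24.0%. In STZ they were between 3.09% for Nfe2l2 and 9.47% for Nqo1, apart from Slc7a11 at 15.8%. For Nqo1 in STZ, counting error alone would give 0.755%, so the samples differed in Nqo1 by more than counting error. For Osgin1 in Control, counting error would give 9.27% and the observed value was 4.14%. Intervals from counting cover counting error only.

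The genes whose profile over the 6 samples lay closest to that of Hmox1 were found by the root mean square difference of log2 levels, each gene centred on its own mean. These were Plk2, a stress-induced polo-like kinase (0.03), Anxa8, an annexin (0.07), and Akr1b8, an aldo-keto reductase (0.08). Their log2 fold changes were 1.74, 1.75 and 1.79, so all share the step between the groups.

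Around these genes, 6 lists of related genes were examined, of which 69 were tested. With an adjusted p-value under 0.05, 27 of the 69 were higher and 12 lower, against 25.9% and 25.1% of all genes tested, and 30 did not pass. The median log2 fold change over these lists was 0.05. Rises numbered 9 of 12 among detoxifying enzymes and exporters, and 2 of 13 in the thioredoxin list, which held 6 falls. No test compared the lists with each other or with other genes. Genes in the next paragraphs that are neither the leading nor the most abundant of their list are examples. They were picked by no fixed rule after their values were seen, and other genes that passed are not named.

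Of 16 partners of Nrf2 and genes of its degradation, 4 were higher, a share near the 25.9% of all genes tested, and 2 were lower, against 25.1%. None was higher past a log2 fold change of 1 as well, against 2.26% of all genes tested, so small a share that none among 16 says little. Sqstm1 encodes p62, an autophagy receptor that binds Keap1 and is itself an Nrf2 target. It rose from 340 to 455 CPM (log2 fold change 0.42, adjusted p = 5.0e-13, standard error 0.04). Mafk, a small Maf partner, rose by 0.86 from a low level of 3.19 CPM, while Mafg, another small Maf, fell from 109 to 96.9 CPM (log2 fold change -0.17, adjusted p = 0.0024). Btrc and Syvn1, of ubiquitin ligases that act on Nrf2, rose by 0.25 and 0.22 on the log2 scale, and Amer1 fell by 0.13. Nfe2l1, the related factor Nrf1 and the most abundant of the list, had 523 CPM in Control and 543 CPM in STZ (adjusted p = 0.25). Bach1, the repressor that competes for the same DNA elements, had a log2 fold change of 0.14 (adjusted p = 0.058), and Cul3, the ligase scaffold, one of -0.07 (adjusted p = 0.18).

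Among 13 tested genes of glutathione synthesis and use, 5 were higher and 1 lower, against 25.9% and 25.1% of all genes tested. Ggt1, which cleaves extracellular glutathione, rose from 45.1 to 75.1 CPM (log2 fold change 0.73, adjusted p = 1.9e-13, standard error 0.06). Chac1, which degrades glutathione inside the cell and is a target of the ATF4 pathway, had a log2 fold change of 0.97. Gpx1, the abundant glutathione peroxidase, and Glo1, glyoxalase 1 and the most abundant of the list, had log2 fold changes of 0.31 and 0.26, and the fifth was Slc3a2. Gsr, glutathione reductase, fell from 170 to 156 CPM (log2 fold change -0.12, adjusted p = 0.014).

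In the thioredoxin and peroxiredoxin list, 2 of 13 genes were higher and 6 lower, against the same background of 25.9% and 25.1%. Sesn2, a sestrin that is also a target of p53, rose from 55.4 to 136 CPM (log2 fold change 1.30, adjusted p = 2.5e-24, standard error 0.05). Prdx1, a cytosolic peroxiredoxin and the most abundant of the list, rose from 566 to 700.1 CPM (log2 fold change 0.31, adjusted p = 1.4e-09). Txnrd2, the mitochondrial thioredoxin reductase, fell from 15.4 to 10.1 CPM (log2 fold change -0.61, adjusted p = 1.4e-05), in contrast to the rise of cytosolic Txnrd1. Txnrd3 and Txn1, the cytosolic thioredoxin, fell by 0.64 and 0.12 on the log2 scale.

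The enzymes that supply NADPH were divided, with 3 of 7 higher (25.9% of all genes tested), 3 lower (25.1%) and 1 not past the test. Tkt, the transketolase of the pentose phosphate pathway, rose from 537 to 609.9 CPM (log2 fold change 0.19, adjusted p = 2.5e-05). Pgd and Me1 rose by 0.13 and 0.21 on the log2 scale. Idh1, the cytosolic isocitrate dehydrogenase, fell from 136 to 91.6 CPM (log2 fold change -0.57, adjusted p = 5.5e-14, standard error 0.05), and Pgls and Taldo1 fell by 0.23 and 0.11.

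Beside Hmox1, 4 of 8 tested genes of heme and iron handling were higher, against 25.9% of all genes tested. None was lower by edgeR (25.1% of all genes tested at an adjusted p under 0.05), nor at an unadjusted p under 0.05. Ftl1, the ferritin light chain that stores the iron set free from heme, was the most abundant and rose from 908 to 2064 CPM (log2 fold change 1.19, adjusted p = 1.2e-26, standard error 0.04). The symbol Ftl1 stands on 3 entries of the table, of which the one with the most reads is given and the other two had at most 8 reads in any sample. Ferritin genes have near-identical copies in the genome, so the assignment of these reads is uncertain. Fth1, the heavy chain, rose by 0.28, Abcb6, a porphyrin transporter, by 0.42, and Blvrb, which reduces biliverdin, by 0.18 on the log2 scale.

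Of 12 tested phase II enzymes and exporters, 9 were higher, against 25.9% of all genes tested. None was lower by edgeR (25.1% of all genes tested at an adjusted p under 0.05), nor at an unadjusted p under 0.05. Their median log2 fold change was 0.33. Ephx1, the microsomal epoxide hydrolase, rose from 61.4 to 236 CPM (log2 fold change 1.95, adjusted p = 1.1e-30, standard error 0.05). Akr1b8 rose from 58.9 to 204 CPM. Gstp1, a glutathione S-transferase with close relatives and the most abundant of the list, rose from 174 to 230.1 CPM (log2 fold change 0.41, adjusted p = 2.0e-11). Abcc1 and Abcc4, exporters of conjugates, rose by 0.47 and 0.36 on the log2 scale.

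**Figure D4:**
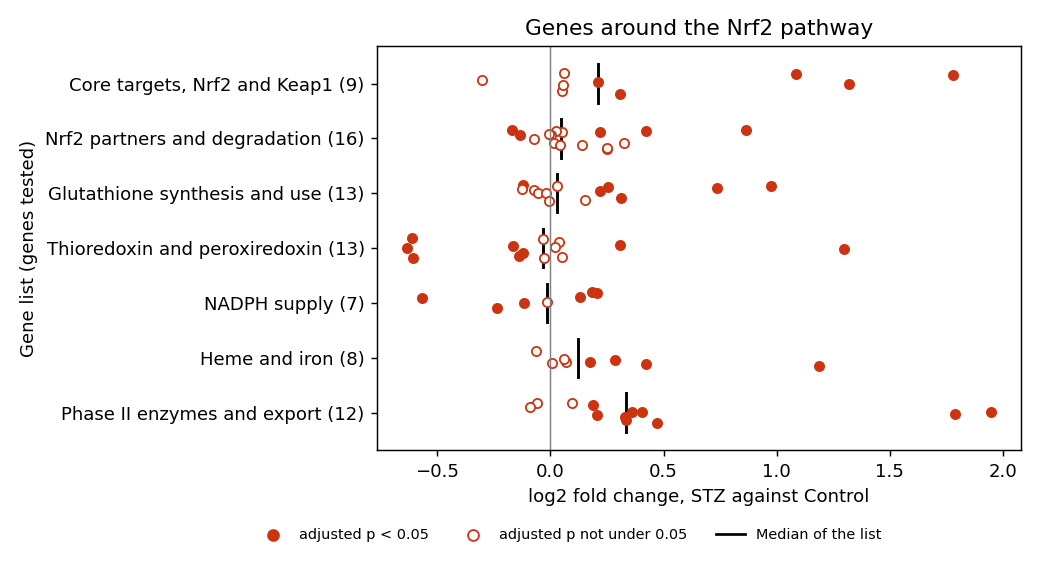
Log2 fold change, STZ against Control, of each gene tested in the core set and in 6 related lists, where filled points have an adjusted p under 0.05, black lines are list medians and vertical offsets only separate points. The medians of the core set (0.21) and of phase II enzymes and exporters (0.33) lie right of the other lists, and the thioredoxin list reaches down to -0.64.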

How the data were processed

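RNA of 3 Control and 3 STZ samples was sequenced as 100-base single-end reads from a stranded mRNA library. Mapping by the authors used STAR 2.7.10a and the rat build Rnor6, and they deposited raw counts of uniquely mapped reads per gene from featureCounts, without normalization. The annotation and the strand setting are not given in the sources used here. Columns were matched to samples by title, and 0 were left over.

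In R 4.3.3, edgeR 4.0.16 was used for TMM scaling, the filterByExpr filter at default settings and the quasi-likelihood test, and p-values were adjusted (Benjamini-Hochberg) over 11870 genes. Both thresholds of the study were used (adjusted p under 0.05, absolute log2 fold change over 1). Dividing the size of a log2 fold change by the root of its F statistic gave the standard error, and the 95% intervals use the fit's degrees of freedom. Ratios of paired genes were compared by exact two-sided permutation, whose smallest p is 0.1. The members and lists were chosen with earlier results of these data known. All members are named, and from each related list the genes with the smallest p in each direction and the most abundant gene. Alternatives were 3 other scalings, 3 other filters, 4 other tests (DESeq2 1.42.0, limma-voom 3.58.1, edgeR's exact and likelihood ratio tests), glmTreat, thinning, a replicate block and each sample left out. The steps were tested on simulated data. Total counts of 10430924 to 15191349 set the precision for low genes. Replicates of a group differed by more than counting noise (chi-square per degree of freedom of at least 1.85). Promoters and overlapping spans came from RefSeq (GRCr8), which is not the build of the counts, and transcript lengths were not used, so "abundant" and sums over genes refer to reads and not to transcripts. The ratio of Srxn1 to Txnrd1 was not computed. Slc40a1, Epcam, Cldn1 and Dcn of the related lists did not match the table and were not analysed here.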

Additional observations from a re-analysis of the deposited data

How the results depend on the processing

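Under the 18 alternatives other than glmTreat, the same 5 genes passed the adjusted p-value and were higher, none was lower, and the sign of every fitted log2 fold change was kept. The filter of at least 10 counts in all samples left Slc7a11 untested, so 8 genes were tested there. With glmTreat, which asks for a log2 fold change over 1, 2 genes passed (Hmox1 and Nqo1), against 3 past both thresholds. With one sample left out, log2 fold changes were 1.74 to 1.83 for Hmox1, 1.24 to 1.38 for Nqo1, 1.06 to 1.13 for Osgin1, 0.26 to 0.35 for Txnrd1, 0.14 to 0.26 for Gclm, 0.04 to 0.09 for Nfe2l2, 0.02 to 0.09 for Keap1, 0.03 to 0.09 for Gclc and -0.45 to -0.09 for Slc7a11, and the median of the 9 genes was 0.14 to 0.26. Other scalings, filters and tests gave Gclm log2 fold changes of 0.18 to 0.21. Over the 18 alternatives, its adjusted p was 2.9e-04 to 0.049. Of the related genes, 35 to 40 passed, against 39. The difference in the Keap1 to Nfe2l2 ratio, -0.01 on the log2 scale, was -0.04 to 0.05 with one sample left out.

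Control and STZ samples share replicate numbers, and whether same-numbered samples were handled together is not stated. The deviations of same-numbered samples from their group means had correlations of 0.03, -0.04 and 0.10 over 10341 genes. Such correlations show no strong shared deviation but cannot show whether the samples were paired. Under the replicate block, 5 of the 9 genes and 40 of the related genes passed, and the block changed no call among the 9. Few reads limit Slc7a11.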
